A study of Mus musculus with 4 samples.

Results

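The genes described here are 10 neuropeptide receptors of the mouse, Npy1r, Npy2r, Sstr1, Sstr2, Sstr3, Oprd1, Oprm1, Oprl1, Hcrtr2 and Oxtr. They were taken by symbol from the 43348 features of 4 deposited matrices, and each symbol was found in each matrix. Unique molecular identifiers (UMIs, which mark single captured mRNA molecules) were counted for each receptor by cell class, brain region, genotype and library. The study profiled single cells sorted for the TdTomato reporter of the Ai14 allele from acute slices of frontal cortex and hippocampus, with droplet sequencing of mRNA ends. The null group carried Nkx2-1Cre:Grin1fl/fl:Ai14, so that Grin1, the obligatory subunit of NMDA-type glutamate receptors, was deleted where the Nkx2-1 promoter had driven Cre. The WT group was Nkx2-1Cre:Grin1wt/wt:Ai14, from the same litters, and so carried the same Cre and reporter alleles. Mice of both sexes were used at postnatal days 18 to 20, with no sex given for single libraries, and the buffers of both groups held TTX, APV and actinomycin-D, which block firing, NMDA receptors and transcription. Nkx2-1 marks the medial ganglionic eminence (MGE), an embryonic source of cortical and hippocampal interneurons and also of some glia. The sorted cells held more than interneurons, and the origin of the other cells was not tested.

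Neuropeptide receptors are mostly G protein-coupled receptors that read slow, diffusing signals. Receptors for neuropeptide Y, somatostatin, opioid peptides and nociceptin couple mainly to inhibitory G proteins, which lower cyclic AMP, open inward-rectifier potassium channels and curb calcium channels and transmitter release, whereas receptors for orexin and oxytocin couple mainly to Gq and raise excitability. MGE-derived interneurons both make such peptides and carry receptors for them, and which subtype carries which receptor decides which of these signals it can read.

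The 4 matrices, 1 for each genotype and region, pooled 10 libraries that were told apart by the suffix of the cell barcode. There were 3 WT and 2 null libraries in each region. In WT cortex, replicates 1, 2 and 3 held 1277, 3851 and 3960 cells with 9306756, 14212183 and 28057207 UMIs. In WT hippocampus, replicates 1, 2 and 3 held 2221, 4600 and 3159 cells with 10555408, 8782181 and 20639002 UMIs. In null cortex, replicates 1 and 2 held 181 and 2898 cells with 1488601 and 25688337 UMIs, and in null hippocampus 404 and 4436 cells with 3856745 and 47338167 UMIs. Replicate 1 of every group was made with version 2 of the chemistry and the others with version 3, and no group of nulls had a replicate 3. Median depth ran from 1479 UMIs per cell in WT hippocampus replicate 2 to 9508 in null hippocampus replicate 2. Over the 45 pairs of libraries, at most 12 cell barcodes were shared, at most 0.565% of the smaller library.

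Of 26987 barcodes 26201 passed the filter on genes and mitochondrial UMIs. The filter took 11.04% of null cortex replicate 2 and 8.59% of null hippocampus replicate 2, and at most 2.21% of any other library. The cells fell into 35 clusters, of which 30 were named by marker genes with the receptors kept out of the clustering, and 10034 cells were interneurons of a named class. SST-like cells (somatostatin interneurons, clusters 1, 4, 22 and 26, with the TH-like clusters 11 and 12 counted among them) numbered 619, 1037 and 1512 in WT cortex, 285, 342 and 309 in WT hippocampus, 87 and 642 in null cortex and 86 and 791 in null hippocampus. PVALB-like cells (the parvalbumin class, clusters 3, 23 and 31) numbered 137, 503 and 636, then 52, 176 and 75, then 26 and 242, then 32 and 265 in the same order. NGFC-like cells (neurogliaform, clusters 5 and 15) numbered 50, 141 and 104, then 176, 519 and 349, then 6 and 98, then 65 and 672. Null cortex replicate 1, with 6 NGFC-like cells, was left out of that class, so its null cortex group was 1 library that was assumed to vary like the other groups. Some libraries stood apart in the clustering: 226 of the 336 cells of SST-like cluster 26 came from WT cortex replicate 1, and 515 of the 605 cells of NGFC-like cluster 15 from WT hippocampus replicate 2. Glutamatergic cells, oligodendrocytes and their precursors, astrocytes and microglia were also present and give the levels outside interneurons. Glutamatergic cells numbered 47, 627 and 116 in WT cortex, 2, 13 and 70 in WT hippocampus, 1 and 65 in null cortex and 1 and 37 in null hippocampus. Libraries under 10 cells were left out, and of the rest WT hippocampus replicate 2 had 13288 UMIs in these cells, with 1 for Npy1r (75.3 CPM) and 0 for each of the other receptors.

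Levels are in CPM (a gene's UMIs scaled to a library size of 1e6 UMIs), from the UMIs summed over the cells of a class or cluster in 1 library. In SST-like, PVALB-like and NGFC-like cells Grin1 was lower in every null library than in every WT library of the same class and region. In glutamatergic cells it measured 141, 243 and 177 CPM in WT cortex against 43.8 in null cortex replicate 2. In hippocampus they had 75.3 and 218 CPM in WT replicates 2 and 3 against 98.0 in null replicate 2, where the 75.3 rests on 13 cells with 13288 UMIs of all genes. In SST-like cells it stood at 153, 254 and 231 CPM in WT cortex against 36.5 and 28.4 in null cortex, and at 120, 202 and 157 CPM in WT hippocampus against 21.6 and 21.7 in null hippocampus. In PVALB-like cells it stood at 112, 212 and 178 CPM against 43.5 and 21.4 in cortex, and at 102, 168 and 122 CPM against 22.8 and 16.8 in hippocampus. In NGFC-like cells it stood at 114, 183 and 165 CPM against 36.2 in the single null cortex library, and at 117, 111 and 133 CPM against 33.3 and 15.5 in hippocampus. The deletion was thus visible in these 3 interneuron classes, with some Grin1 UMIs left in each. The fitted log2 differences of null from WT in cortex and hippocampus were −2.73 and −2.86 in SST-like, −2.58 and −2.83 in PVALB-like and −2.09 and −2.38 in NGFC-like cells. With edgeR none of these 6 comparisons put Grin1 under the threshold of an adjusted p of 0.01, 3 of 6 put it under 0.05, and DESeq2 put it under 0.01 in 5 of 6. The 0 calls that edgeR made for a deleted gene bear on how far 0 calls among the receptors can be read.

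The comparisons asked whether loss of Grin1 altered a receptor in cortex or in hippocampus, whether WT cells of the regions differed, and whether the genotype difference depended on region (the interaction). Calls came from an edgeR fit over the library sums and needed both an adjusted p below 0.01 and a change of 0.1 or more in natural-log units. In SST-like cells all 10 receptors were among the 12935 genes tested, and edgeR called 0 of 10 for genotype in cortex (0.0% of all genes), 0 of 10 for genotype in hippocampus (0.0%), 0 of 10 for region in WT (0.0696%) and 0 of 10 for the interaction (0.0%). At an unadjusted p under 0.05 there were 1, 0, 3 and 0 receptors, against 2.16%, 3.19%, 7.53% and 0.572% of all genes. DESeq2 called 0, 0, 1 and 0, against 0.0155%, 0.00773%, 0.819% and 0.0% of all genes. The 1 that DESeq2 called, Oxtr by region in WT, stood among 106 genes (0.819% of those tested). With the replicate number as a block, edgeR called 29 genes by region in WT (0.224%) and 0 of the 10 receptors. The edgeR count of 9 genes by region in WT in this class moved to 5, 2 and 3 without WT cortex replicate 1, 2 or 3, to 3 without WT hippocampus replicate 3 and to 15 without WT hippocampus replicate 2, and the receptor count was 0 each time.

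In PVALB-like cells Sstr2, Oprd1, Oprl1 and Oxtr passed the filter on low counts among 9701 genes, and the other 6 receptors did not. Here edgeR called 0 of 4 for genotype in cortex (0.0103% of all genes), 0 of 4 for genotype in hippocampus (0.0%), 0 of 4 for region in WT (0.0618%) and 0 of 4 for the interaction (0.0%). At an unadjusted p under 0.05 there were 1, 1, 0 and 0 receptors, against 3.64%, 3.04%, 4.99% and 1.13% of all genes, and DESeq2 called 0 in each, against 0.134%, 0.0103%, 0.258% and 0.0%. The 1 gene called for genotype in cortex and the 6 called for region in WT depended on single libraries. Leaving out a library gave 0 to 5 genes for genotype in cortex, with 0 without WT cortex replicate 2 or 3 or null cortex replicate 2, 2 without WT cortex replicate 1, 3 without either null hippocampus replicate and 5 without WT hippocampus replicate 2. For region in WT it gave 3, 1 and 0 genes without WT cortex replicate 1, 2 or 3, 3, 3 and 1 without WT hippocampus replicate 1, 2 or 3, and 2 without null hippocampus replicate 2. No receptor was among them under any of these. In NGFC-like cells Oprm1, Oprl1, Hcrtr2 and Oxtr passed among 9729 genes, the other 6 did not, and edgeR called 0 of 4 and 0.0% of all genes in each of the 4 comparisons, with 0 receptors at an unadjusted p under 0.05 (1.42%, 3.29%, 3.24% and 0.401% of all genes) and 0 by DESeq2 (0.0%, 0.0103%, 0.0617% and 0.0%).

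Counting instead the receptors whose libraries did not overlap between groups, SST-like cells had 2 of 10 lower in null cortex (Sstr1 and Oprd1), where 15.9% of all tested genes did not overlap, and 0 of 10 in hippocampus, where 16.8% did not. By region in WT, 5 of 10 did not overlap in SST-like cells, against 12.5% of all tested genes, with Npy1r and Npy2r higher in hippocampus and Sstr1, Sstr2 and Oxtr lower. In PVALB-like cells, Oprd1 was lower and Oprl1 higher in null cortex, 2 of 4 where 20.0% of all genes did not overlap, and Sstr2 was lower and Oprl1 higher in null hippocampus, 2 of 4 where 13.9% did not. Region in WT separated 0 of 4 in PVALB-like cells (9.4% of all genes) and 0 of 4 in NGFC-like cells (7.51%), and genotype in hippocampus 0 of 4 in NGFC-like cells (19.0%). Genotype in cortex in NGFC-like cells, with 1 null library, separated 1 of 4 (Hcrtr2, higher), where 40.4% of all genes did not overlap. The genotype counts in SST-like cells were thus near or under the share of all genes. The region count in SST-like cells stood above that share. The receptors were chosen with earlier results of these data known, so this is not read as an excess. The counts in PVALB-like cells rest on too few tested receptors to be read against the share of all genes. Over the receptors tested in SST-like cells, the median log2 difference was 0.12 for genotype in cortex, 0.01 for genotype in hippocampus and 0.08 for region in WT, against −0.02, −0.03 and 0.01 over all genes tested. In PVALB-like cells the medians of the 4 were −0.49, −0.34 and 0.45 against −0.003, −0.01 and 0.02, and in NGFC-like cells 0.41, −0.32 and 1 against −0.01, −0.04 and 0.03.

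**Figure D1:**
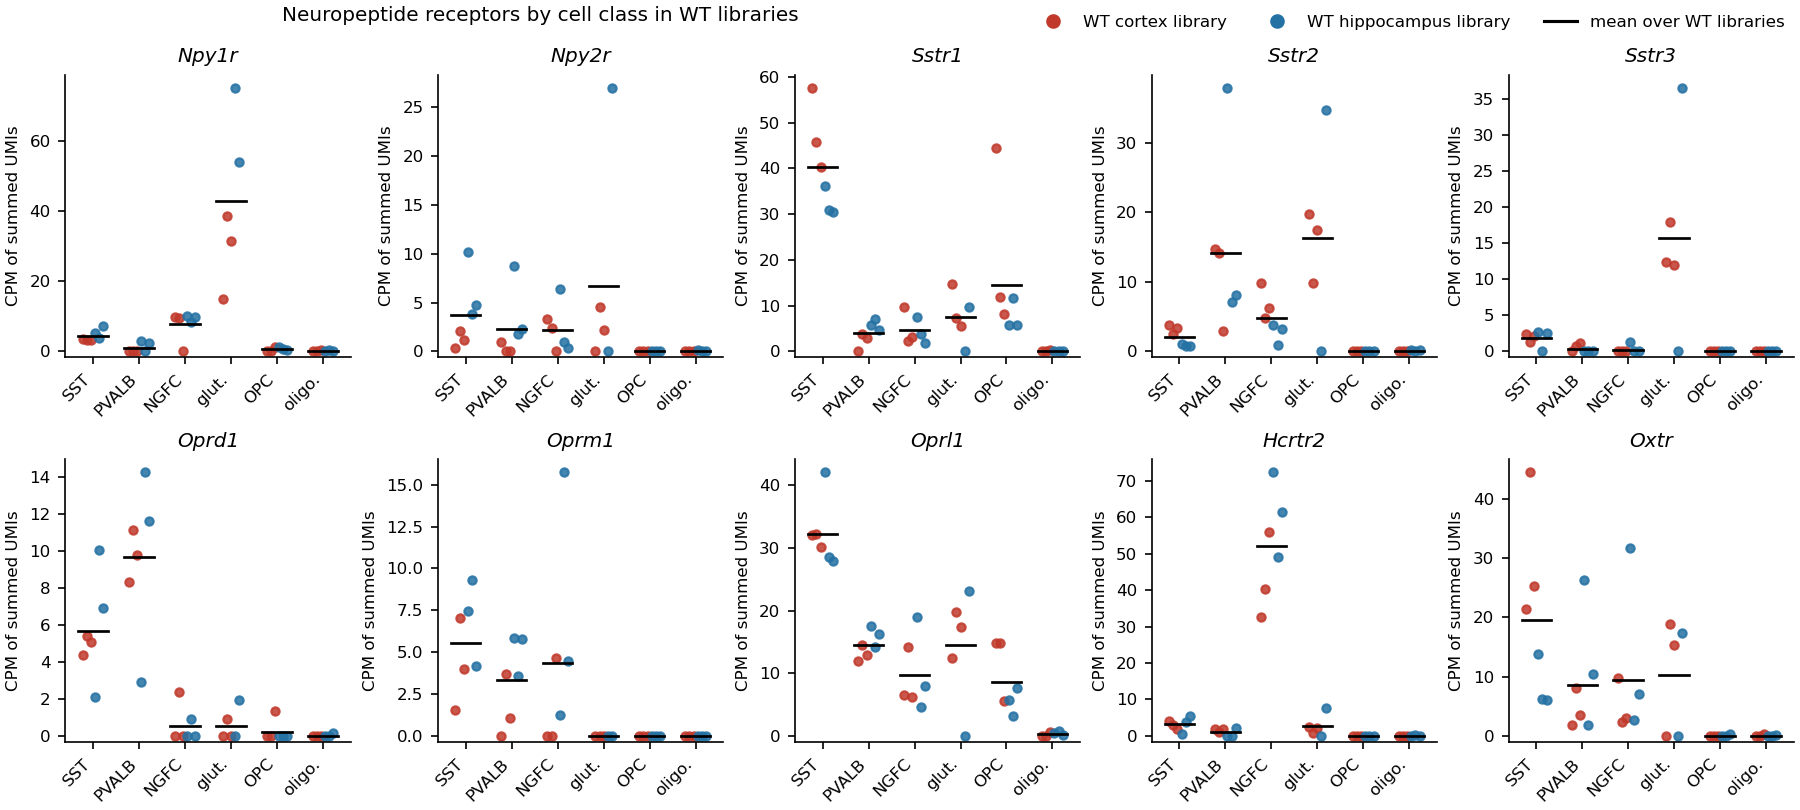
Each panel plots 1 receptor, with the level in CPM of summed UMIs in every WT library (points, red for cortex and blue for hippocampus) and the mean over WT libraries (bar) for SST-like, PVALB-like, NGFC-like and glutamatergic cells, oligodendrocyte precursors (OPC) and oligodendrocytes; the axes start at or just under 0 and differ between panels. Hcrtr2 was highest in NGFC-like cells at 52.0 CPM, Sstr1 and Oprl1 in SST-like cells at 40.2 and 32.2 CPM, and Npy1r in glutamatergic cells at 42.9 CPM.

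Npy1r (chr8:66697192-66706792, GRCm38) encodes the Y1 receptor, the main postsynaptic receptor for neuropeptide Y. Among classes it was highest in glutamatergic cells, at 42.9 ± 22.9 CPM (mean ± SD, n = 5 WT libraries), or 34.8 ± 16.2 (n = 4) without WT hippocampus replicate 2, whose 75.3 CPM is 1 UMI, a step chosen after seeing the data. Both are beyond the spread of the next class. The following levels were 7.96 ± 3.95 in NGFC-like, 4.41 ± 1.58 in SST-like, 3.995 ± 4.74 in astrocytes and 0.900 ± 1.35 in PVALB-like cells (n = 6 each), and no neighbours in that order differed beyond the larger SD. Within interneurons it stood highest in TH-like cluster 12 (leading genes Crh and Tac2), at 13.6, 15.6 and 14.1 CPM in WT cortex and 11.7 and 17.9 in WT hippocampus replicates 1 and 3, a mean of 14.6 ± 2.30 (n = 5). The next, NGFC-like cluster 5, had 8.05 ± 4.51 (n = 5), and the gap exceeded that SD. In SST-like cells as a whole, Npy1r measured 3.61, 3.19 and 3.26 CPM in WT cortex, 5.33, 3.87 and 7.21 in WT hippocampus, 2.28 and 3.74 in null cortex and 4.99 and 4.34 in null hippocampus. The WT regions did not overlap, though by little, and the genotypes did. The log2 difference of hippocampus from cortex was 0.69 (SE 0.37, higher in 3 of 3 replicates at 0.56, 0.28 and 1.15, edgeR adjusted p = 0.784). It was 0.4246 without WT hippocampus replicate 3 and 0.0871 in cluster 12 by itself, a fit chosen after seeing the data.

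Npy2r (chr3:82538383-82548084) encodes the Y2 receptor, which sits largely on axon terminals and curbs release. Its highest level outside the named classes was in cluster 21, which was left unnamed because it carried markers of both interneurons and cholinergic cells and which had Oxt, Avp and Lhx8 among its leading genes, as well as Npy2r. Oxt and Avp came almost wholly from WT cortex replicate 2, with 1863 of 1864 and 329 of 332 UMIs in 7 and 5 of its 119 cells there, whereas Lhx8 had UMIs in 7 libraries and Npy2r in each library with at least 10 cells. There it measured 65.6, 69.5 and 75.8 CPM in WT cortex, 55.8 and 14.9 in WT hippocampus replicates 1 and 3, 122.9 in null cortex replicate 2 and 20.0 in null hippocampus replicate 2. Cortex libraries of this cluster all lay above those of hippocampus, the opposite of SST-like cells, though the nearest values, 65.6 and 55.8 CPM, rest on 6 and 2 UMIs. The class means were 6.73 ± 11.5 CPM in glutamatergic (n = 5), 3.72 ± 3.53 in SST-like, 2.30 ± 3.30 in PVALB-like and 2.20 ± 2.38 in NGFC-like cells (n = 6 each), none of them apart from its neighbour beyond the spread. Among interneuron clusters SST-like cluster 4 (leading genes Cbln4, Olfm3 and Calb2) came first over WT libraries, at 10.0 ± 9.33 CPM (n = 6). The next lay within that SD. SST-like cluster 22 had 81.9 CPM in null hippocampus replicate 2, from 32 UMIs over 18 cells. It had 3.47 CPM in null cortex replicate 2 and at most 3.77 in WT libraries.

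In cluster 4 the Npy2r levels of the regions did not overlap, though the fit of this cluster did not call the gene. The spread within WT hippocampus was itself wide, with an SD of 8.99 CPM against 0.685 in WT cortex. Npy2r measured 2.85, 2.91 and 4.06 CPM in WT cortex and 3.59 and 5.59 in null cortex. In hippocampus it measured 24.5, 6.92 and 18.8 CPM in WT and 17.5 and 24.9 in nulls. All 5 hippocampal libraries, at 6.92 to 24.9 CPM, lay above all 5 cortical ones, at 2.85 to 5.59. The nearest values, 6.92 in WT hippocampus replicate 2 and 5.59 in null cortex replicate 2, rest on 5 and 6 UMIs. The other cortical values rest on 2, 5 and 14 UMIs in WT and 1 in null cortex replicate 1. In SST-like cells as a whole it measured 0.380, 2.07 and 1.18 CPM in WT cortex, 10.1, 3.87 and 4.71 in WT hippocampus, 3.42 and 1.71 in null cortex and 9.99 and 13.8 in null hippocampus, again with no overlap between regions. The log2 difference of hippocampus from cortex in WT was 2.25 (SE 0.54, higher in 3 of 3 replicates at 4.73, 0.90 and 2), which missed the threshold with edgeR at an adjusted p of 0.114, over a range of 0.003897 to 0.4179 across the alternatives. With classes of single cells the log2 difference was 1.191. In cluster 4 by itself, a fit chosen after seeing the data, it was 2.21 (SE 0.49, adjusted p = 0.0300). The interaction with genotype was 0.27 (SE 0.89, adjusted p = 1). The genotype log2 differences in SST-like cells were 0.73 (SE 0.67) in cortex and 0.99 (SE 0.53) in hippocampus, with overlapping libraries. PVALB-like cells had the same order of regions at lower levels, with 0.924, 0 and 0 CPM in WT cortex and 0 and 0.932 in null cortex against 8.76, 1.78 and 2.32 in WT hippocampus and 2.28 and 12.0 in null hippocampus. These rest on at most 3 UMIs in each library but null hippocampus replicate 2, which had 50, and Npy2r was not tested in that class.

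Sstr1 (chr12:58211772-58214444), a receptor for somatostatin and cortistatin known also as an autoreceptor, had its highest class level in SST-like cells. It measured 57.6, 45.8 and 40.4 CPM in WT cortex and 36.2, 30.95 and 30.5 in WT hippocampus, a mean of 40.2 ± 10.3 (n = 6), beyond the spread of the next class. Oligodendrocyte precursors followed at 14.6 ± 14.8 CPM (n = 6), glutamatergic cells at 7.43 ± 5.45 (n = 5), NGFC-like cells at 4.75 ± 3.19 and PVALB-like cells at 4.03 ± 2.49 (n = 6 each), and none of these differed from its neighbour beyond the spread. Within the SST-like class the level was not even. Clusters 26, 1 (leading genes Npas1 and Myh4) and 12 had 64.6 ± 40.1 (n = 2), 56.3 ± 17.7 (n = 6) and 53.2 ± 15.2 CPM (n = 5), TH-like cluster 11 (Th and Nr4a2) and cluster 4 had 34.98 ± 5.61 (n = 5) and 26.2 ± 12.2 (n = 6), and SST-like cluster 22 (Chodl, Npy and Nos1) had 4.17 ± 2.92 (n = 4), close to PVALB-like and NGFC-like clusters.

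In nulls, Sstr1 in SST-like cells measured 34.2 and 18.0 CPM in cortex and 33.3 and 17.5 in hippocampus. Both cortical values lay below all 3 of WT cortex, whereas in hippocampus the genotypes overlapped. Null differed from WT in cortex by a log2 of −0.97 (SE 0.37), lower within replicate 1 at −0.75 and within replicate 2 at −1.35, with an edgeR adjusted p of 1 that ran from 0.653 to 1 over the alternatives. It was −0.458 without null cortex replicate 2 and −1.436 without null cortex replicate 1. By cluster, in fits chosen after seeing the data, it was −1.27 (SE 0.45, adjusted p = 0.9996) in cluster 4, with 35.6, 38.4 and 34.5 CPM in WT cortex against 17.9 and 13.97 in null cortex, and −0.465 in cluster 12, where the libraries overlapped. In cluster 1, with no fit of its own, Sstr1 measured 47.6, 75.4 and 53.6 CPM against 38.8 and 32.5, without overlap. In hippocampus the class difference was −0.41 (SE 0.37, adjusted p = 0.9997), and the interaction was 0.57 (SE 0.52, adjusted p = 1). WT hippocampus differed from WT cortex by a log2 of −0.64 (SE 0.31, lower in 3 of 3 replicates at −0.67, −0.56 and −0.40, adjusted p = 0.717). It was −1.21 (SE 0.36, adjusted p = 0.133) in cluster 4 by itself and turned to 0.09 in cluster 12 by itself, both fits chosen after seeing the data. The clusters that make up the SST-like class took different shares of the libraries, with cluster 4 at 13.3%, 26.1% and 22.3% of the class in WT cortex, 43.5%, 52.1% and 25.2% in WT hippocampus, 22.99% and 13.7% in null cortex and 37.2% and 46.3% in null hippocampus. Cluster 22, where Sstr1 was low, took 5.33%, 12.7% and 3.77% in WT cortex and 4.60% and 22.7% in null cortex, and 0.324% to 6.14% of the class in the hippocampal libraries. Cluster 26, where the mean of Sstr1 was highest, took 36.5%, 0.868% and 0.463% in WT cortex and 8.05% and 0.312% in null cortex. In hippocampus it took 17.5%, 0% and 0.971% in WT and 20.9% and 1.77% in nulls. In WT cortex replicate 1 it held 163 of the 303 Sstr1 UMIs of the class. The part of this make-up in the class differences was not tested.

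Sstr2 (chr11:113619342-113626028) encodes the somatostatin receptor found mostly on the dendrites and somata of target cells. Its class means were 16.4 ± 12.8 CPM in glutamatergic (n = 5) and 14.2 ± 12.5 in PVALB-like cells (n = 6), which did not differ beyond their spread, then 4.79 ± 3.02 in NGFC-like and 2.07 ± 1.36 in SST-like cells (n = 6 each). The PVALB-like signal came mainly from cluster 23 (leading gene Pthlh), where Sstr2 measured 157, 83.7 and 37.0 CPM in WT cortex, 91.8, 17.7 and 35.6 in WT hippocampus, 40.7 in null cortex replicate 2 and 17.9 in null hippocampus replicate 2. The mean there, 70.5 ± 51.5 CPM (n = 6), was beyond the spread of every other interneuron cluster, against 2.37 ± 3.404 (n = 6) in PVALB-like cluster 3 (leading genes Cartpt, Pvalb and Tac1) and 0 in clusters 11, 22 and 31. Cluster 23 took 10.95%, 13.5% and 4.87% of PVALB-like cells in WT cortex, 28.9%, 45.5% and 14.7% in WT hippocampus, 7.69% and 30.6% in null cortex and 25% and 35.9% in null hippocampus.

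In PVALB-like cells as a whole, Sstr2 measured 14.8, 14.1 and 2.995 CPM in WT cortex, 37.9, 7.13 and 8.13 in WT hippocampus, 0 and 12.1 in null cortex and 4.56 and 6.49 in null hippocampus. Both null values of hippocampus lay below the WT ones, but replicate 2 differed little. The log2 difference was −1.33 (SE 0.91, −3.06 within replicate 1 and −0.14 within replicate 2, edgeR adjusted p = 0.9998), and −0.372 without WT hippocampus replicate 1. In SST-like cells Sstr2 was sparse, at 3.804, 2.55 and 3.397 CPM in WT cortex against 1.07, 0.774 and 0.832 in WT hippocampus, the latter from 6 UMIs in all. In WT the regions did not overlap and the log2 difference was −1.93 (SE 0.71, lower in 3 of 3 replicates at −1.84, −1.72 and −2.03, edgeR adjusted p = 0.403). It was −0.7319 with classes of single cells and −0.305 in cluster 12 by itself. In nulls the regions overlapped, at 3.42 and 0.641 CPM in cortex and 2.50 and 0.884 in hippocampus. In NGFC-like cells, where Sstr2 was not tested, the 4 cortical libraries lay at 4.75 to 9.80 CPM and the 5 hippocampal ones at 0.926 to 3.802, from 1 to 17 UMIs a library.

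Sstr3 (chr15:78537008-78544685) encodes the somatostatin receptor of neuronal primary cilia. It was highest in glutamatergic cells at 15.8 ± 13.4 CPM (n = 5), or 19.7 ± 11.6 (n = 4) without WT hippocampus replicate 2. This was beyond the spread of SST-like cells at 1.84 ± 1.03 (n = 6). Oligodendrocytes, their precursors, astrocytes and microglia of WT libraries had no Sstr3 UMI. The floors that 3 counts set there were 0.120, 0.473, 3.35 and 12.3 CPM in that order. The lack of UMIs thus does not place astrocytes or microglia below SST-like cells. Among interneuron clusters TH-like cluster 12 had the highest level, at 7.78, 8.503 and 6.83 CPM in WT cortex and 7.81 and 1.98 in WT hippocampus replicates 1 and 3. With a mean of 6.58 ± 2.64 (n = 5) it exceeded cluster 11 at 1.87 ± 1.73 (n = 5) beyond the larger SD. Cluster 12 thus carried Npy1r, Sstr1 and Sstr3 together at or near the top of the interneuron clusters. In SST-like cells as a whole Sstr3 ran from 0 to 3.62 CPM over the 10 libraries, with overlap in each comparison.

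**Figure D2:**
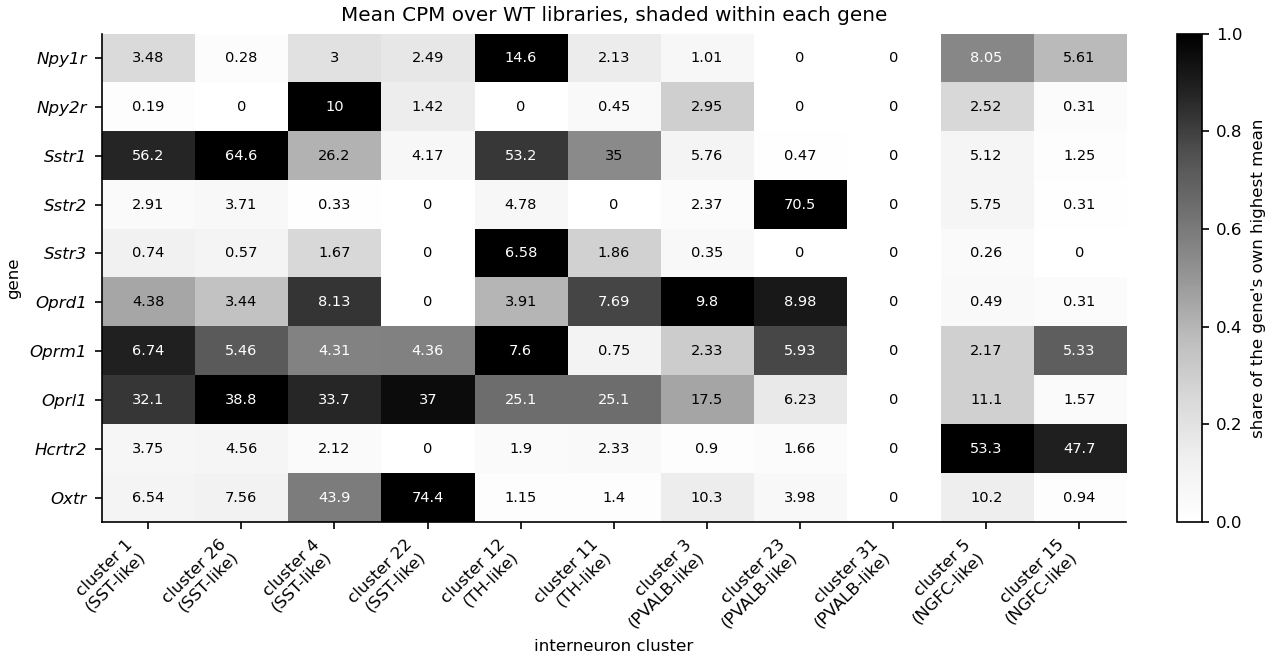
The 11 named interneuron clusters are columns and the 10 receptors are lines, each box giving the mean CPM over WT libraries and shaded by its share of that gene's own highest mean. Oxtr peaked in cluster 22 at 74.4 CPM, Sstr2 in cluster 23 at 70.5, Hcrtr2 in clusters 5 and 15 at 53.3 and 47.7, and Npy2r in cluster 4 at 10.0.

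Oprd1 (chr4:132110726-132144486) encodes the delta opioid receptor, which enkephalins activate. It belonged to PVALB-like and SST-like cells, at 9.67 ± 3.86 and 5.66 ± 2.66 CPM (n = 6 each), a gap beyond the larger SD. NGFC-like cells had 0.550 ± 0.968 CPM (n = 6), and SST-like cluster 22, which had the enkephalin precursor Penk among its leading genes, had no Oprd1 UMI in 245 WT cells, a pooled count that allows up to 1.04 CPM. Clusters 3, 23, 4 and 11 had 7.69 to 9.80 CPM and did not differ beyond their spread. In PVALB-like cells Oprd1 measured 8.32, 11.1 and 9.77 CPM in WT cortex, 2.92, 14.3 and 11.6 in WT hippocampus, 3.62 and 4.35 in null cortex and 4.56 and 5.05 in null hippocampus. Both null cortex values lay below all WT cortex values, and in hippocampus only WT replicate 1 lay below the nulls. The null cortex values came from 1 and 14 UMIs. The log2 difference in cortex was −1.22 (SE 0.56, −1.20 within replicate 1 and −1.36 within replicate 2), with an edgeR adjusted p of 0.9999 and 0.708 to 1 over the alternatives, and in hippocampus it was −1.10 (SE 0.59, adjusted p = 0.9998). The class was not made up alike in both genotypes. Cluster 31 (leading genes Crabp1 and Kit), with no Oprd1 UMI in any cortical library, took 7.30%, 1.79% and 2.67% of PVALB-like cells in WT cortex against 23.1% and 24.0% in null cortex, and 0% to 3.77% in the hippocampal libraries. In cluster 3 by itself, chosen after seeing the data, Oprd1 measured 8.73, 10.3 and 10.0 CPM in WT cortex against 4.89 and 5.35 in null cortex, without overlap, and the log2 difference was −0.89 (SE 0.65, adjusted p = 1). In SST-like cells it measured 4.38, 5.42 and 5.06 CPM in WT cortex against 3.42 and 2.57 in null cortex, and 2.13, 10.1 and 6.93 in WT hippocampus against 4.16 and 3.21 in null hippocampus. The log2 differences were −0.85 (SE 0.56) in cortex, with −0.35 and −1.08 within replicates 1 and 2, −0.51 without null cortex replicate 2 and −0.26 in cluster 4 by itself, and −0.83 (SE 0.55) in hippocampus, with adjusted p of 1 and 0.9997. All 4 of these estimates were negative and none passed the test, and the libraries overlapped in hippocampus.

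Oprm1 (chr10:6758506-7038198) encodes the mu opioid receptor, best known for disinhibition through interneurons. It was counted in interneurons and had no UMI in glutamatergic cells, oligodendrocytes, their precursors, astrocytes or microglia of WT libraries. The floor that 3 counts set was 1.01 CPM in glutamatergic cells, 0.120 in oligodendrocytes, 0.473 in their precursors, 3.35 in astrocytes and 12.3 in microglia. The lack of UMIs thus does not place astrocytes below PVALB-like cells, or microglia below any interneuron class. SST-like, NGFC-like and PVALB-like cells had 5.58 ± 2.84, 4.36 ± 5.95 and 3.34 ± 2.39 CPM (n = 6 each), which did not differ beyond their spread, and no 2 neighbours among the interneuron clusters did. In SST-like cells it measured 1.52, 7.02 and 4.02 CPM in WT cortex, 7.46, 9.28 and 4.16 in WT hippocampus, 1.14 and 5.88 in null cortex and 1.67 and 5.38 in null hippocampus. These values overlapped in each comparison, and in both genotypes of cortex and in null hippocampus replicate 1 was the lowest library. Within replicates 1 and 2 of each region the null library lay below the WT one. Replicate 1 of null cortex and of null hippocampus had 1 and 2 UMIs, and no fit called Oprm1 in this class. In SST-like cluster 4 the regions did not overlap, though by little. Oprm1 measured 1.42, 1.74 and 1.45 CPM in WT cortex and 0 and 0.931 in null cortex there, from 0 to 5 UMIs a library, against 9.04, 5.54 and 6.64 in WT hippocampus and 1.95 and 5.56 in null hippocampus. The 1.95 rests on 1 UMI and the 1.74 on 3. Oprm1 did not pass the filter on low counts in that cluster and so was not tested.

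Oprl1 (chr2:181715016-181720985) encodes the nociceptin receptor, an opioid-like receptor that classical opioids do not engage. In SST-like cells it measured 32.1, 32.2 and 30.1 CPM in WT cortex, 42.1, 28.6 and 28.0 in WT hippocampus, 29.7 and 44.9 in null cortex and 34.1 and 45.7 in null hippocampus. The WT mean of 32.2 ± 5.15 CPM (n = 6) exceeded PVALB-like cells at 14.6 ± 2.04 (n = 6) beyond the spread, while PVALB-like, glutamatergic (14.6 ± 9.02, n = 5), NGFC-like (9.78 ± 5.62, n = 6) cells and oligodendrocyte precursors (8.61 ± 5.01, n = 6) followed with no such gap. The 6 clusters of the SST-like class had 25.1 to 38.8 CPM. In PVALB-like cells Oprl1 measured 12.01, 14.46 and 12.93 CPM in WT cortex against 14.49 and 17.09 in null cortex, and 17.5, 14.3 and 16.3 in WT hippocampus against 29.7 and 28.9 in null hippocampus. Null values lay above WT values narrowly in cortex and by a wider margin in hippocampus. The log2 differences were 0.31 (SE 0.33, 0.27 and 0.24 within replicates 1 and 2) in cortex and 0.86 (SE 0.35, 0.76 and 1.02 within replicates 1 and 2) in hippocampus, with edgeR adjusted p of 0.9999 and 0.9998, and over the alternatives the adjusted p in hippocampus ran from 0.606 to 1. Without null cortex replicate 2 the cortical difference was 0.187, and with classes of single cells the hippocampal one was 0.543. Cluster 31, which took a larger share of PVALB-like cells in null than in WT cortex, had 22.1 CPM of Oprl1 in null cortex replicate 2 and no UMI in WT cortex. In cluster 3 by itself the genotypes overlapped in cortex, at 13.1, 15.2 and 14.0 CPM in WT against 14.7 and 18.7 in nulls. They did not in hippocampus, at 22.4, 21.9 and 18.4 CPM against 28.0 and 33.7 (log2 difference 0.64, SE 0.38, adjusted p = 0.9951). The interaction was 0.55 (SE 0.49, adjusted p = 0.9999).

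**Figure D3:**
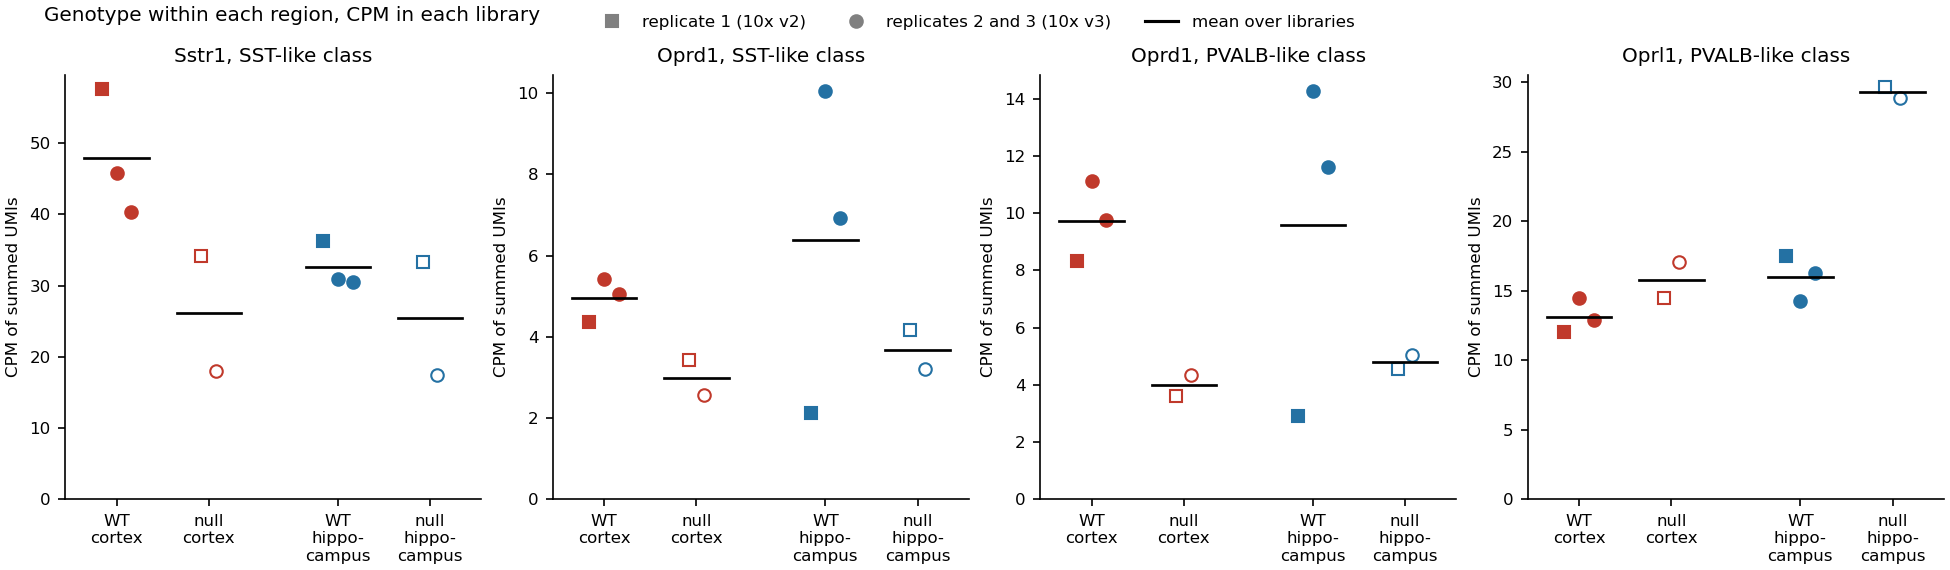
Levels in CPM of summed UMIs of Sstr1 and Oprd1 in SST-like cells and of Oprd1 and Oprl1 in PVALB-like cells, with 1 point per library (filled for WT, open for null, squares for replicate 1 and circles for replicates 2 and 3) and a line at each group's mean. Null cortex lies below WT cortex in the panels of Sstr1 and Oprd1, null hippocampus lies above WT hippocampus for Oprl1 at 29.7 and 28.9 CPM, and no difference passed the test.

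Hcrtr2 (chr9:76225880-76323856) encodes the orexin receptor that reads both orexins, peptides of hypothalamic neurons that promote waking. It had its highest level in NGFC-like cells. There it measured 32.7, 40.4 and 56.0 CPM in WT cortex, 72.2, 49.1 and 61.4 in WT hippocampus, 59.8 in the single null cortex library and 62.3 and 45.9 in null hippocampus. The WT mean of 52.0 ± 14.4 CPM (n = 6) lay far beyond SST-like cells at 3.16 ± 1.74 (n = 6) and glutamatergic cells at 2.65 ± 2.996 (n = 5), which did not differ from each other beyond their spread. NGFC-like clusters 5 and 15 had 53.3 ± 15.8 (n = 5) and 47.7 ± 46.6 CPM (n = 3), no other interneuron cluster exceeded 4.56, cluster 31 had 1 UMI in WT and cluster 22 had none. The null cortex library lay above the WT cortex ones, in a comparison where 40.4% of all genes did not overlap in either direction. The log2 difference of null from WT was 0.44 (SE 0.45, 0.57 within replicate 2). This log2 difference was 0.293 without WT cortex replicate 1, 0.721 without WT cortex replicate 3 and 0.725 with the replicate block. In hippocampus it was −0.16 (SE 0.35, adjusted p = 0.981). The log2 difference of hippocampus from cortex in WT was 0.50 (SE 0.34, edgeR adjusted p = 0.9995). The libraries overlapped, with hippocampus higher within each replicate number.

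Oxtr (chr6:112473683-112489943) encodes the oxytocin receptor, through which oxytocin excites interneurons of cortex and hippocampus. By class it stood at 19.6 ± 14.5 CPM in SST-like (n = 6), 10.3 ± 9.49 in glutamatergic (n = 5), 9.47 ± 11.3 in NGFC-like and 8.66 ± 9.32 in PVALB-like cells (n = 6 each), with no neighbours apart beyond their spread. By cluster the picture was sharper. SST-like cluster 22 had 94.6, 89.8 and 81.1 CPM in WT cortex and 84.0 in null cortex replicate 2. It had 32.2 in WT hippocampus replicate 2, from 3 UMIs over 21 cells, and 46.1 in null hippocampus replicate 2. Its WT mean of 74.4 ± 28.7 (n = 4) stood apart from cluster 4 at 43.9 ± 29.8 (n = 6) by just more than the larger SD. Only 1 of those 4 libraries was hippocampal, against 3 of the 6 of cluster 4. Over both regions cluster 4 exceeded PVALB-like cluster 3, the next at 10.3 ± 11.1 (n = 6), by more than the larger SD. In WT cortex clusters 22 and 4 had 88.5 ± 6.85 and 69.8 ± 7.46 CPM (n = 3 each), and the next were SST-like cluster 26 at 12.5 in 1 library and cluster 1 at 9.75 ± 2.28 (n = 3). In WT hippocampus cluster 22 had 1 library, and cluster 4 at 18.0 ± 12.1 (n = 3) did not stand apart from NGFC-like cluster 5 at 19.2 ± 16.8 (n = 2) or cluster 3 at 15.8 ± 14.4 (n = 3). Clusters 1, 11 and 12 of the same class had 6.54, 1.397 and 1.15 CPM.

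Within cluster 4, Oxtr measured 68.3, 77.9 and 63.2 CPM in WT cortex and 108 and 66.1 in null cortex. In hippocampus it measured 29.7, 5.54 and 18.8 CPM in WT and 25.3 and 21.0 in nulls. All 5 cortical libraries, at 63.2 to 108 CPM, lay above all 5 hippocampal ones, at 5.54 to 29.7. In cluster 4, cortex thus had the higher Oxtr and the lower Npy2r levels, and hippocampus the reverse. In SST-like cells as a whole Oxtr measured 21.5, 44.5 and 25.4 CPM in WT cortex, 13.9, 6.19 and 6.10 in WT hippocampus, 41.1 and 35.7 in null cortex and 11.7 and 12.8 in null hippocampus, again without overlap of regions in either genotype. For hippocampus against cortex in WT the log2 difference was −1.89 (SE 0.37, lower in 3 of 3 replicates at −0.63, −2.85 and −2.06), with an edgeR adjusted p of 0.0538 that missed the threshold. DESeq2 gave an adjusted p of 0.001449 and so called Oxtr, with an adjusted p from 2.035e-05 to 0.2018 over all alternatives, and the replicate block gave 0.0306. In cluster 4 by itself, chosen after seeing the data, the difference was −1.99 (SE 0.41, adjusted p = 0.0185) in a fit that called 95 of 9278 genes (1.02%) and 0 of the 5 receptors tested. The difference was of the same sign without each library in turn, from −2.36 without WT hippocampus replicate 1 to −1.53 without WT cortex replicate 2.

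Genotype did not separate Oxtr in SST-like cells. The log2 differences of null from WT in SST-like cells were 0.33 (SE 0.37) in cortex and 0.54 (SE 0.43) in hippocampus, with overlapping libraries, and the interaction was 0.20 (SE 0.57, adjusted p = 1). In PVALB-like cells the order of the regions was the other way round, at 1.85, 8.16 and 3.47 CPM in WT cortex against 26.3, 1.78 and 10.5 in WT hippocampus, and likewise in NGFC-like cells, at 9.80, 2.38 and 3.11 CPM against 31.7, 2.78 and 7.07. In both classes the regions overlapped, and the log2 differences of 1.25 (SE 0.70) and 1.504 (SE 0.9986) had edgeR adjusted p of 0.9998 and 0.9995. Hippocampus was higher within each replicate number in NGFC-like cells, and within replicates 1 and 3 but not 2 in PVALB-like cells. Whether the region difference of SST-like cells differed from that of the other classes was not tested.

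**Figure D4:**
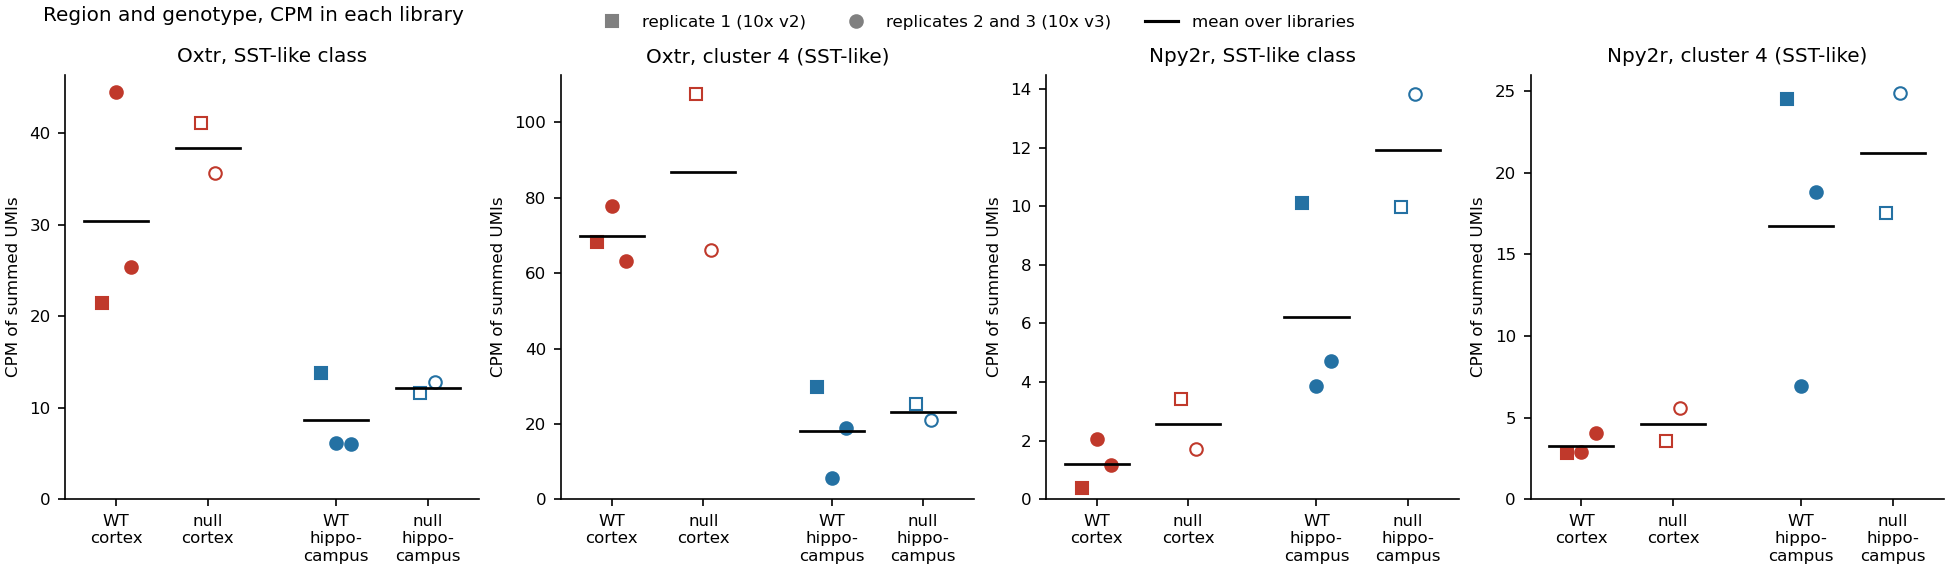
Levels in CPM of summed UMIs of Oxtr and Npy2r in all SST-like cells and in SST-like cluster 4, with 1 point per library (red for cortex, blue for hippocampus, filled for WT, open for null, squares for replicate 1 and circles for replicates 2 and 3) and a line at each group's mean. In cluster 4 the cortical libraries lie at 63.2 to 108 for Oxtr and 2.85 to 5.59 for Npy2r, and the hippocampal ones at 5.54 to 29.7 and 6.92 to 24.9. The Npy2r values of 5.59 and 6.92 rest on 6 and 5 UMIs.

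The share of cells with at least 1 UMI of a receptor depended on depth, so each is given beside oligodendrocytes, a class in which these receptors were near 0. Median depth in WT cells was 7243 UMIs in SST-like, 6817 in PVALB-like, 3462 in NGFC-like cells and 3483.5 in oligodendrocytes, and 10243 in cluster 22. An Sstr1 UMI was found in 22.9% ± 8.05 of SST-like cells (mean ± SD, n = 6 WT libraries) and in 0.0319% ± 0.0782 of oligodendrocytes, and with cells thinned to 1000 UMIs in 4.03% ± 0.988 and 0.0347% ± 0.0849. Thinned shares are over the cells with at least 1000 UMIs, which left out 0.341% of SST-like cells, 11.1% of NGFC-like cells, 11.1% of oligodendrocytes and 1.63% of cluster 22. An Oprl1 UMI was found in 20.7% ± 6.15 of SST-like cells and 0.146% ± 0.147 of oligodendrocytes, or 2.80% ± 1.18 and 0.0306% ± 0.0749 when thinned. An Hcrtr2 UMI was found in 19.1% ± 10.9 of NGFC-like cells and 0.00828% ± 0.0203 of oligodendrocytes, or 4.99% ± 1.66 and 0% when thinned. These 3 shares in interneurons were above those of oligodendrocytes at equal depth too. As oligodendrocytes were taken for their levels near 0, this gap was set by the choice and is no test of detection. Most cells of each class showed no UMI at either depth. An Oxtr UMI was found in 49.1% ± 26.7 of cells of cluster 22 (n = 4) and 0.0498% ± 0.0816 of oligodendrocytes, or 7.06% ± 6.23 and 0% when thinned. The sparser receptors reached 3.98% ± 1.88 (Oprd1), 3.65% ± 1.27 (Oprm1), 3.23% ± 2.07 (Npy1r), 1.72% ± 1.38 (Npy2r), 1.56% ± 1.19 (Sstr2) and 1.48% ± 0.897 (Sstr3) of SST-like cells, each at most 0.532% when thinned, against at most 0.0664% of oligodendrocytes as counted.

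Some genes for peptides that act on these receptors were counted in the same classes, and whether single cells held both was not tested. In SST-like cells Sst stood at 12960 ± 2260 CPM and Npy at 6693 ± 5304 (n = 6). Cluster 22, with 245 of the 4104 WT cells of the class, held 187725 of its 274972 WT UMIs of Npy. Penk stood at 536 ± 139 CPM in cluster 22 (n = 4) against 64.2 ± 46.9 in the whole class (n = 6). Pnoc, the nociceptin precursor, stood at 514 ± 238 CPM in NGFC-like and 149 ± 126 in SST-like cells (n = 6 each). Hcrt, the orexin precursor, was at most 0.907 CPM in any of these classes, and Oxt was at most 0.589 CPM in SST-like, PVALB-like, NGFC-like and glutamatergic cells, oligodendrocytes and their precursors. Of the 11 ligand genes, 7, 6 and 6 were tested in SST-like, PVALB-like and NGFC-like cells, and edgeR called 0 in either direction in every comparison, while DESeq2 called 1, lower by region in WT in SST-like cells (0.819% of all genes), and 0 elsewhere. At an unadjusted p under 0.05 there were 0, 1 and 2 for genotype in cortex (2.16%, 3.64% and 1.42% of all genes), 0, 0 and 1 in hippocampus (3.19%, 3.04% and 3.29%), 3, 3 and 1 by region in WT (7.53%, 4.99% and 3.24%) and 0, 1 and 1 for the interaction (0.572%, 1.13% and 0.401%). The median log2 difference by region in WT was −0.31, 0.20 and −0.50 over the ligands tested in these classes, against 0.01, 0.02 and 0.03 over all genes. By genotype it was 0.16, 0.80 and 0.27 in cortex and 0.70, −0.07 and 0.62 in hippocampus, against −0.04 to −0.003 over all genes.

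Of 51 other neuropeptide receptors, 50 were in the files and 18, 5 and 7 were tested in SST-like, PVALB-like and NGFC-like cells. For genotype, in either region, and for the interaction, edgeR and DESeq2 both called 0 of them in each class, with 5, 2 and 2 at an unadjusted p under 0.05 for genotype in cortex (2.16%, 3.64% and 1.42% of all genes), 1 in each class in hippocampus (3.19%, 3.04% and 3.29%) and 0 for the interaction. Their median log2 differences by genotype were 0.25, 0.52 and −0.64 in cortex and 0.46, −0.06 and 0.15 in hippocampus, against −0.04 to −0.003 over all genes. By region in WT edgeR called 2 of 18 in SST-like cells (0.0696% of all genes) and 1 of 5 in PVALB-like cells (0.0618%), all higher in hippocampus, and 0 of 7 in NGFC-like cells (0.0%). At an unadjusted p under 0.05 there were 9, 3 and 2, against 7.53%, 4.99% and 3.24% of all genes. DESeq2 called 2, 1 and 1, against 0.819%, 0.258% and 0.0617%. The medians by region were 0.31, −0.23 and 0.01 in log2, against 0.01, 0.02 and 0.03 over all genes. Npffr1, a receptor for RF-amide peptides, measured 0.190, 0.797 and 1.53 CPM in WT cortex and 28.8, 13.9 and 27.2 in WT hippocampus in SST-like cells (log2 difference 4.50, SE 0.48, adjusted p = 0.001413). Qrfpr, the receptor for the RF-amide peptide QRFP, measured 0.571, 0.159 and 1.04 against 17.6, 6.19 and 21.1 CPM in the same cells (log2 difference 4.397, SE 0.54, adjusted p = 0.004149). Every hippocampal library of both genotypes lay above every cortical one for both genes. The call of Npffr1 was lost without WT cortex replicate 2 or WT hippocampus replicate 3 (adjusted p = 0.0171 and 0.01177). That of Qrfpr was lost without WT cortex replicate 1, 2 or 3, WT hippocampus replicate 3 or null hippocampus replicate 1 or 2 (adjusted p = 0.02164, 0.01912, 0.01304, 0.02863, 0.01223 and 0.01696). With only the groups compared both calls were lost (0.02451 and 0.03558). Rxfp3, the receptor for relaxin-3, had 2 UMIs in WT cortex and 54 in WT hippocampus in PVALB-like cells, a ratio of levels of 155 with a 95% counting interval of 40.9 to 1312 (adjusted p = 0.0007128, higher in 3 of 3 hippocampal libraries). This call was lost without WT cortex replicate 3 (adjusted p = 0.0145). Of 42 genes for G proteins, channels and regulators downstream of these receptors, 40 were in the files and 37, 33 and 33 were tested, and edgeR called 1, by region in WT in PVALB-like cells (0.0618% of all genes), and 0 elsewhere. At an unadjusted p under 0.05 there were 7 of 33 in that comparison, against 4.99% of all genes, and 4 of 37 in SST-like and 1 of 33 in NGFC-like cells by region (7.53% and 3.24%). For genotype there were 2, 4 and 0 in cortex (2.16%, 3.64% and 1.42%) and 0, 1 and 1 in hippocampus (3.19%, 3.04% and 3.29%), and for the interaction 0, 2 and 0 (0.572%, 1.13% and 0.401%). DESeq2 called 3 and 1 by region in WT in PVALB-like and SST-like cells (0.258% and 0.819% of all genes), all higher in hippocampus, and 0 elsewhere. The gene that edgeR called was Rgs16, which speeds the shut-off of G proteins, with 1 UMI in WT cortex and 25 in WT hippocampus, a ratio of 143 with an interval of 23.5 to 5888 (adjusted p = 0.006674, higher in 3 of 3). Its call was lost without any 1 of 9 of the 10 libraries, null hippocampus replicate 1 being the exception, with an adjusted p from 0.01283 without WT hippocampus replicate 1 to 0.1436 without WT cortex replicate 3, and with classes of single cells (0.0178). The median log2 difference of these genes by region was −0.13, 0.14 and 0.06 in the 3 classes, against 0.01, 0.02 and 0.03 over all genes, and by genotype −0.12, −0.05 and −0.27 in cortex and −0.17, −0.09 and −0.17 in hippocampus, against −0.04 to −0.003.

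Over 44 sums of an interneuron cluster in a WT library, the genes whose levels followed each receptor most closely among 10481 were described by Pearson's r of log2(CPM + 1). These sums share libraries and depth, and no p is given. For the NPY receptors they were Sorcs3 (r = 0.703) and Ralyl (0.702) for Npy1r, and Cbln4 (0.668) and Ap1s2 (0.570) for Npy2r. For the somatostatin receptors they were Kcnf1 (0.837) and Ldb2 (0.827) for Sstr1, Krt12 (0.688) and Camk2d (0.640) for Sstr2, and Nts (0.622), 1 of the closest, for Sstr3. For the opioid receptors they were Ghitm (0.808) and Osbpl1a (0.806) for Oprd1, Ccnk (0.610) and D130043K22Rik (0.583) for Oprm1, and Nrsn2 (0.886) and Slc5a5 (0.875) for Oprl1. Hcrtr2 was followed most closely by Atp6ap1l (0.856) and Adarb2 (0.835), and Oxtr by Bcl11a (0.770). Of these, Cbln4 for Npy2r, Krt12 for Sstr2, Nts for Sstr3 and Atp6ap1l for Hcrtr2, were leading genes of the cluster in which the receptor was highest.

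In the annotation, the next gene downstream on the same strand left room for 7 of the 10 receptors to take the full 4 kb by which the authors lengthened gene ends, a rule that stopped midway to a nearer feature. For Oprd1 the next such gene, Gm37711, began after 1363 bases, for Oprm1 Gm15536 after 463 bases and for Sstr3 C1qtnf6 after 5592 bases, which by this rule gave these 3 a shorter end. Sstr2, Oprm1 and Hcrtr2 overlapped genes on the other strand.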

How the data were processed

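Counts were the deposited UMI counts as the authors made them with Cell Ranger (version 2.1.1 in the labels, 3.0.2 in the matrix headers) on mm10. Their annotation had the lengthened gene ends (up to 4 kb) described above. Barcode suffixes were given replicate numbers by matching cell numbers with the study's methods. Barcodes had to show at least 200 and at most 6000 genes with mitochondrial UMIs below 30%, and the rest were dropped. Cells were integrated and clustered with Seurat 5.3.0 (25 dimensions, resolution 1, 1983 variable genes, the 17 receptor genes among 2000 left out) and named from marker lists, with TH-like cells counted with SST-like ones following the study. Sums of UMIs over the cells of each class were taken in every library, libraries under 10 cells were left out, and each class was fitted in 1 model over the 4 groups with edgeR 4.0.16 (quasi-likelihood, TMM scaling, filterByExpr, R 4.3.3), with adjusted p over all genes tested. Standard errors are the log2 difference over the root of the F statistic.

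Named genes were the 10 receptors, with a fold change printed where libraries did not overlap or a fit called it and for values set beside these, the genes of 3 lists (51 other neuropeptide receptors, 11 ligands, 42 signalling partners) that were called, at most 6 per list and comparison, and the 2 genes most like each receptor, of which the text prints 1 for Sstr3 and 1 for Oxtr. The members and lists were chosen with earlier results of these data known. Alternatives were DESeq2 1.42.0 with its size factors, library size in place of TMM, no filter on low counts, an adjusted p under 0.05, replicate number as a block, only the groups compared, mitochondrial genes left out, at least 1000 genes with at most 10% mitochondrial UMIs, resolutions 0.6 and 1.4, classes of single cells, removal of 249 likely doublets (0.950%), each library left out and, for shares, cells thinned to 1000 UMIs. Counting the unnamed cluster 9 with SST-like cells, fitting clusters 3, 4 and 12 each by itself and leaving WT hippocampus replicate 2 out of the glutamatergic levels were chosen after seeing the data. Between compared groups, libraries of the same replicate number were correlated at r of 0.150 to 0.633 over 19 pairs (median 0.263) after removal of group means, and other pairs at −0.565 to 0.170 over 38 (median −0.207). Removal of the means of groups of 2 or 3 tends to push the other pairs below 0. Over all groups the 33 pairs of the same number ran down to 0.018, so the numbers were taken to pair libraries of compared groups only. The main fits, with their standard errors and adjusted p, did not model this pairing, which entered only as the replicate block. For Sstr1 by genotype in cortex in SST-like cells the SE was 0.37 in the main fit and 0.27 with the block.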

Additional observations from a re-analysis of the deposited data

How the results depend on the processing

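The count of receptors called moved in 2 of 271 values. By region in WT in SST-like cells it was 1 with DESeq2 (Oxtr), against 0.819% of all genes. It was 2 of 10 with no filter on low counts (Oxtr and Npy2r), in a fit that called 244 of 23044 genes (1.06%). The cause of these moves was not tested. The log2 difference of Sstr1 by region in WT turned to 0.09461 in cluster 12 by itself, and no other log2 difference of the 280 changed sign. Leaving out each library changed no receptor call. The replicate block changed no receptor call, and moved the genes called by region in WT to 29, 16 and 4 in SST-like, PVALB-like and NGFC-like cells and those by genotype in cortex in PVALB-like cells to 4. Levels moved by more than the spread between libraries in 1 of 400 values, the Hcrtr2 level in PVALB-like cells with classes of single cells (3.653 CPM), and thinning moved 17 of 30 shares. Counts of all genes called ranged widely, from 2 to 244 by region in WT in SST-like cells. Limits are 2 null libraries per region, and 1 for NGFC-like cells of cortex, a version of the chemistry that changes with the replicate, low UMI counts of Npy2r, Sstr2, Sstr3 and Oprm1, and 6 receptors not tested in PVALB-like and in NGFC-like cells. Intervals and floors cover counting error only.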
